A study of Mus musculus with 6 samples.

Results

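The genes described are 10 mouse genes of the stress-induced ATF and C/EBP network: Atf3, Atf4, Atf5, Ddit3, Trib3, Cebpa, Cebpb, Cebpd, Cebpg and Nupr1. They were taken by gene name from a deposited expression table of 54532 genes, in which 11 rows carry one of these names because Ddit3 has 2 identifiers. The set was chosen by its measured difference between treated and untreated cells, so the levels and differences of the 10 genes are a description, without a test. RNA sequencing had been run on cultured granulosa cells of the mouse ovary (the supporting cells of the follicle, which nourish the oocyte and make oestrogen), grown adherently in DMEM/F12 medium with fetal bovine serum. One group of 3 libraries came from untreated cells and the other group of 3 from cells given cyclophosphamide, an alkylating chemotherapy drug that is activated by metabolism in the liver and damages the ovary. All 6 are labelled wild type, and drug exposure is given as 24 h. A sample label names intraperitoneal injection of the drug, whereas the protocol and the design text describe its addition to cultured cells; the text below follows the labels only for which library was treated. The labels name no age, strain, drug dose or vehicle, and none of them says that the 3 libraries of a group came from separate cultures or animals, so the spread and the p-values below measure variation between these libraries, which may be technical.

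ATF4 is a basic leucine zipper (bZIP) transcription factor whose mRNA is translated more efficiently when the initiation factor eIF2 is phosphorylated, as in amino acid shortage, endoplasmic reticulum stress, oxidative stress or haem shortage. It pairs with C/EBP family members and binds a composite element, one side of which is a C/EBP half-site and the other an ATF half-site, in the control regions of genes for amino acid uptake, tRNA charging and stress adaptation. ATF3, ATF5, DDIT3 (CHOP) and TRIB3 are among its known targets, and DDIT3, a C/EBP relative, and TRIB3, a pseudokinase that binds ATF4 and AKT, limit or redirect the response. In granulosa cells C/EBPα and C/EBPβ are best known as mediators of the luteinizing hormone response at ovulation.

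Sequenced depth was similar in the 6 libraries, at 16458385 to 17607586 reads assigned to genes, and 14751 genes passed the low-read filter, all 10 genes among them. Levels are given in FPKM, fragments per kilobase of gene length and scaled to library depth, a unit in which levels of different genes can be compared. Differences are log2 fold changes of FPKM + 0.1, cyclophosphamide over untreated. The added 0.1 understates the change of low genes, and does so more the lower their level. A gene is said to have changed where its limma adjusted p was under 0.05. The first principal component, with 87.1% of the variance, separated the groups, and on the second, with 4.56%, cyclophosphamide replicate 1 (-27.4) stood apart from replicate 2 (20.1) and replicate 3 (6.25). The granulosa markers Foxl2, Inha, Inhba and Amhr2 were detected in both groups, but Cyp19a1 (aromatase) had 3 reads in all untreated and 1 in all treated libraries, and Amh 16 and 22. Of the 10 measured granulosa markers 9 fell and 1, Kitl, rose, and their summed level was 2854 to 3022 FPKM untreated and 1129 to 1448 treated. Over all genes tested, 35.9% fell and 33.3% rose. Of 10 macrophage markers 3 were measured, of which Csf1r and Cd68 rose and Lyz2 fell, with a summed level of 6.18 to 7.01 FPKM untreated and 8.99 to 11.3 treated and with the defining gene Ptprc at 9 and 7 reads. No adipocyte marker was measured (Adipoq, Lep and Cidec at 0 reads), of 5 endothelial markers 3 were measured and 1 rose, of 8 oocyte markers 3 were measured and 2 rose, of 4 theca markers 2 were measured and 1 rose and 1 fell, and of 6 surface epithelium markers all were measured and 5 fell. The theca marker that fell, Aldh1a1, stood at 950.6 FPKM untreated and 226.0 FPKM treated, and Ptch1 rose from 4.15 to 8.07 FPKM. The theca markers Cyp17a1 and Insl3 had 1 and 1 reads untreated and 8 and 0 treated. Some of these marker counts changed with the setting: the fall of Lyz2 did not pass the threshold without untreated replicate 2, untreated replicate 3 or cyclophosphamide replicate 3, and without any 1 of the same 3 libraries 1 oocyte marker rose. Without untreated replicate 1, 1 endothelial marker fell. Without untreated replicate 3, cyclophosphamide replicate 2 or cyclophosphamide replicate 3, 4 surface epithelium markers fell. With only genes of a mean of at least 1 FPKM kept, 2 surface epithelium markers fell and 1 oocyte marker rose. The share of reads from mitochondrial ribosomal RNA was 0.0235% to 0.0303% untreated and 0.0700% to 0.150% treated, and that from mitochondrial coding genes overlapped between groups. The part of these markers and shares in the results was not tested.

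The composite element has the core TGATGNAA, and this core was searched on both strands from 250 bases before to 50 bases after each RefSeq start. It lay in 3 of the 9 genes that matched a RefSeq window (33.3%), namely Atf3, Trib3 and Nupr1, and in 288 of 10625 tested genes with a window (2.71%). Over all 32851 windows of the same length, 1304 held it (3.97%). The lines below show these 3 elements beside those of Slc7a11, Asns and Chac1, genes of amino acid and glutathione metabolism long known as ATF4 targets, because the same letters stand near the starts of genes whose mRNA differed by very unequal amounts and in both directions. Each is 30 bases of RefSeq sequence on GRCm38.p6, 5′ to 3′ on the strand that carries the core, with the core in capitals.
Atf3: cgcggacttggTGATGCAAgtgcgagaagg
Trib3: ccccgcccggcTGATGTAAacctgagctaa
Nupr1: caagccctgtcTGATGCAAtctggcccttt
Slc7a11: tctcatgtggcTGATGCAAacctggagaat
Asns: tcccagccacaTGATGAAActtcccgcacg
Chac1: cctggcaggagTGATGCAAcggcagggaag

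The Atf3 stretch is chr1:191183425-191183454 and the Nupr1 stretch chr7:126625562-126625591, and in both the core begins 110 bases before the start that the RefSeq window is built on (bases 191183333 and 126625470). The table's gene models of both begin further upstream, so by those models the core lies 34596 bases inside Atf3 and 5281 bases inside Nupr1. The core of the Trib3 stretch, chr2:152344028-152344057, begins 14 bases after the RefSeq start at base 152344060. The table's gene model of Trib3 starts at base 152344032, and the nearest base of the core lies 7 bases before that start. All 3 genes lie on the minus strand of the genome, and in all 3 the core reads on the strand opposite to transcription. The Slc7a11 stretch is chr3:50443661-50443690, the Asns stretch chr6:7693214-7693243 and the Chac1 stretch chr2:119351038-119351067. Slc7a11 holds a second, overlapping stretch with the core on the other strand, at chr3:50443642-50443671. The other motifs were searched in the same way. These were the cyclic AMP element TGACGTCA, the C/EBP palindrome TTGCNNAA and the unfolded protein response element core TGACGTGG. They were in 0 of the 9 genes with a window, and in 3.60%, 9.59% and 1.03% of the tested genes with a window. A match describes letters only, and no match says only that these letters are not in this window. The core was also in 4 of 14 amino acid supply genes with a window (28.6%), 5 of 9 tRNA synthetase and export genes (55.6%), 5 of 16 stress effectors (31.2%) and 0 of 12 genes of the eIF2 pathway, lists described further on, and the first 3 hold textbook targets of this element. These counts include listed genes that did not pass the low-read filter, such as the stress effector Fgf21. Over all 27025 genes with a window, tested or not, 4.51% held the core.

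**Figure D1:**
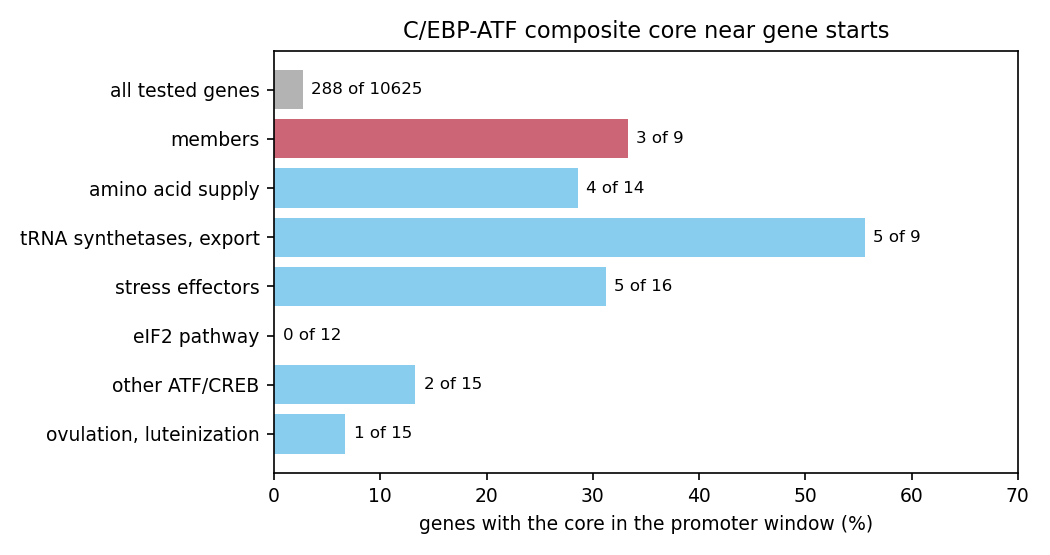
Share of genes (percent, horizontal axis) whose window around the start holds the composite core, with the counts beside each bar. Bars are for all tested genes with a window, the 9 of the 10 genes (members) with a window, and the pathway lists. The list bars count every listed gene with a window, tested or not. The bar of the 9 genes stands at 33.3% and that of all tested genes at 2.71%.

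Of the 10 genes, 8 were higher after cyclophosphamide, 1 (Nupr1) was lower and 1 (Cebpd) did not pass the threshold. Over all 14751 genes tested, 69.3% passed it, 33.3% higher and 35.9% lower, and since the set was selected on this contrast nothing is read from the comparison. In 9 of the 10 genes the 3 treated libraries did not overlap the 3 untreated ones, as in 73.4% of all genes tested, from which again nothing is read. The median log2 fold change of the 10 was 1.64, against -0.02 over all genes tested, and their summed level was 397.5 FPKM untreated and 1296 treated. In these bulk libraries, a change in the share of a cell type and a change of RNA per cell cannot be told apart.

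**Figure D2:**
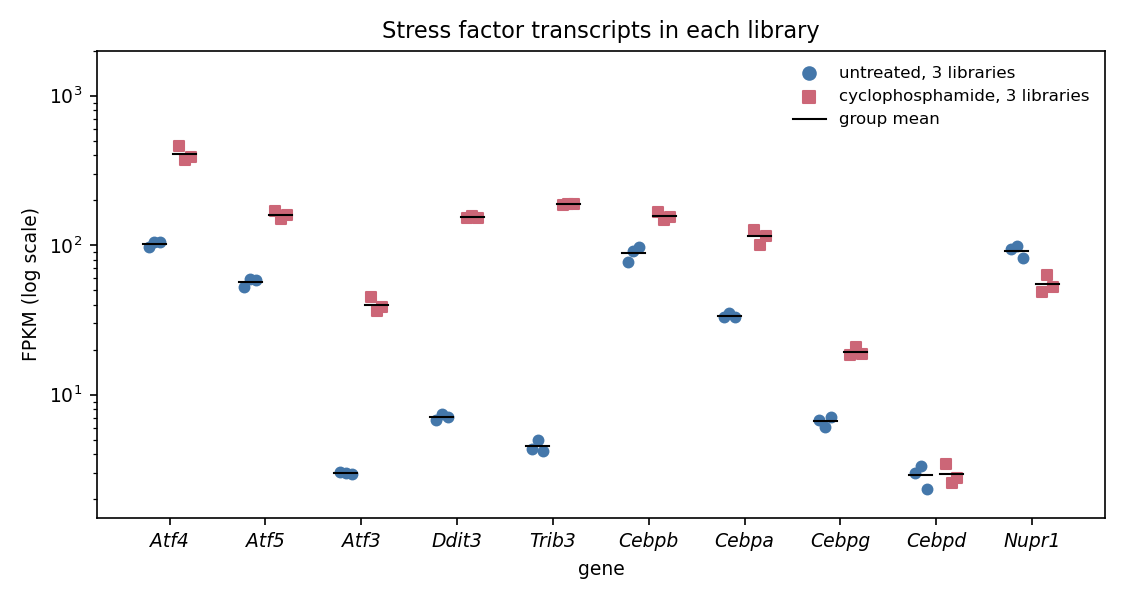
Level of each gene in FPKM on a log axis, with a point for each of the 3 untreated and 3 cyclophosphamide libraries and a line at the group mean. In 9 genes the groups do not overlap, Nupr1 is the one that is lower, and the points of Cebpd overlap.

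Atf4 encodes the central factor of the response. Its level was 97.3, 104.9 and 104.5 FPKM in the untreated libraries and 461.7, 372.9 and 387.3 FPKM in the treated ones. It was the most abundant of the 10 mRNAs in both groups, and the lowest treated library stood far above the highest untreated one. The mean went from 102.2 ± 4.26 to 407.3 ± 47.7 FPKM (SD, n = 3), 3.98-fold, a log2 fold change of 1.99 ± 0.10 (SE).

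Atf5, whose mRNA like that of Atf4 carries upstream reading frames that govern its translation, stood at 52.8, 59.3 and 58.4 FPKM untreated and 168.5, 150.6 and 158.1 FPKM treated. The groups were well separated, with a ratio of means of 2.80 and a log2 fold change of 1.48 ± 0.08. Atf3, an immediate stress-response factor that often acts as a repressor, was scarce in untreated cells, at 3.04, 2.98 and 2.97 FPKM, and reached 45.4, 36.5 and 38.4 FPKM in treated cells. Its mean was 13.4-fold higher and its log2 fold change 3.69 ± 0.09, which 24 of the genes tested exceeded. Of the summed level of the 3 ATF genes, Atf3 made up 1.85 ± 0.115% untreated and 6.60 ± 0.102% treated, Atf4 63.1 ± 0.404% and 67.1 ± 1.09%, and Atf5 35.1 ± 0.516% and 26.3 ± 1.18% (SD, n = 3). The ATF total was 162.1 ± 7.75 FPKM untreated and 606.5 ± 61.1 FPKM treated.

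Ddit3 encodes CHOP, a C/EBP relative that pairs with other C/EBP proteins and drives the late, death-prone arm of the response. Its level was 6.75, 7.42 and 7.04 FPKM untreated and 152.3, 156.0 and 152.9 FPKM treated. The 3 treated libraries lay within a narrow band and the mean was 21.7-fold higher, with a log2 fold change of 4.42 ± 0.06. Of the genes tested, 8 had a higher log2 fold change of FPKM + 0.1.

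Trib3 encodes a Tribbles pseudokinase that binds ATF4, CHOP and AKT. It stood at 4.32, 4.96 and 4.23 FPKM untreated and 186.7, 189.8 and 189.3 FPKM treated. The mean of 4.50 ± 0.398 FPKM became 188.6 ± 1.70 FPKM (SD, n = 3), 41.9-fold, and its log2 fold change was 5.36 ± 0.07. Of the genes tested, 0 had a higher log2 fold change of FPKM + 0.1. This rank depends on the added 0.1, which shrinks the rise of genes near the floor. One of these is Cox6a2, at 0.0571 FPKM untreated and 4.99 FPKM treated (2 and 177 reads). By level Trib3 moved from the 44.2nd to the 98.9th percentile of the genes tested. At the deposited scaling, the treated libraries varied by 0.9% (coefficient of variation) for Trib3 and 1.3% for Ddit3. Read counting alone gives 1.2% and 1.5%. Atf4 and Atf3 both varied by 11.7%, where counting gives 0.8% and 2.6%. The depth behind that scaling was 0.987, 1.038 and 1.034 of the assigned reads in cyclophosphamide replicates 1, 2 and 3. Spreads as small as those of Trib3 and Ddit3 depend on this scaling. Cyclophosphamide replicate 1, which stood apart on the second component, was the highest treated library for Atf3, Atf4, Atf5, Cebpa, Cebpb and Cebpd, and replicate 2 for Ddit3, Trib3, Cebpg and Nupr1.

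Of the 4 C/EBP genes, 3 were higher in treated cells and Cebpd did not pass the threshold. Cebpa, a differentiation factor of liver, fat and myeloid cells, stood at 33.0, 35.0 and 33.1 FPKM untreated and 126.4, 101.1 and 116.1 FPKM treated, a 3.40-fold ratio and a log2 fold change of 1.76 ± 0.09. Cebpg, a short C/EBP that pairs with ATF4, was low, at 6.81, 6.03 and 7.11 FPKM untreated and 18.4, 20.9 and 18.8 FPKM treated, a ratio of 2.91 and a log2 fold change of 1.53 ± 0.09. For both genes, every treated library was above every untreated one.

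Cebpb, the most abundant C/EBP mRNA of untreated cells, stood at 76.9, 92.1 and 97.3 FPKM untreated and 165.6, 146.9 and 155.0 FPKM treated. The groups did not overlap, but its ratio of 1.76 and log2 fold change of 0.82 ± 0.10 were the smallest of the 8 genes that were higher. Cebpd, an acute-phase C/EBP, stood at 2.99, 3.32 and 2.34 FPKM untreated and 3.45, 2.58 and 2.77 FPKM treated. These values overlap, and the log2 fold change of 0.03 ± 0.17 became -0.09 without cyclophosphamide replicate 1 and -0.11 without untreated replicate 3. A p that misses the threshold does not show that the groups are alike.

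CHOP forms dimers with C/EBP proteins, and the levels of the 4 C/EBP genes and Ddit3 were therefore summed as 1 pool. The pool was 139.1 ± 11.0 FPKM untreated and 446.4 ± 19.4 FPKM treated (SD, n = 3). Cebpb made up 63.7 ± 2.73% of it untreated and 34.9 ± 0.586% treated, and Ddit3 5.10 ± 0.275% and 34.5 ± 1.92%. The ranges of Ddit3 and Cebpb, far apart in untreated cells, overlapped in treated cells. Cebpa made up 24.3 ± 1.79% and 25.6 ± 1.78%, and Cebpg 4.81 ± 0.596% and 4.35 ± 0.483%. Cebpd made up 2.09 ± 0.430% and 0.655 ± 0.0749%. These are mRNA levels, and no protein was measured.

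**Figure D3:**
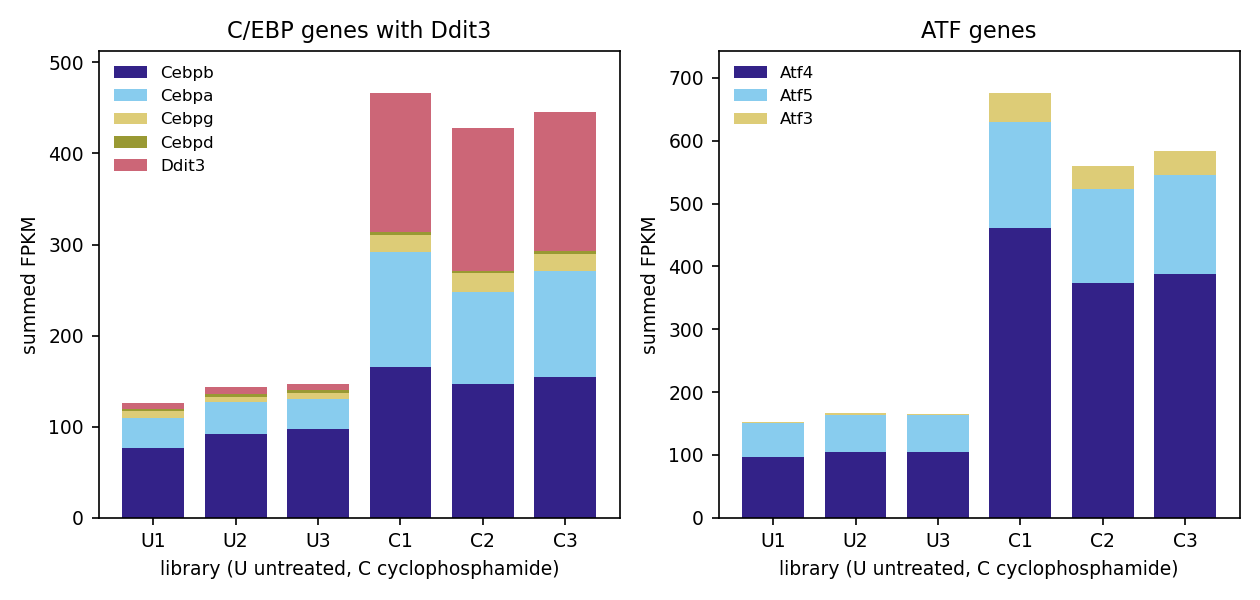
Summed level in FPKM of the C/EBP genes with Ddit3 (left) and of the ATF genes (right) in each untreated (U1 to U3) and cyclophosphamide (C1 to C3) library, with each gene's part as a coloured segment. The Ddit3 segment is 5.10% of the untreated and 34.5% of the treated sum on average, and Atf4 is the largest ATF segment in all 6 libraries.

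Nupr1 encodes a small stress-induced chromatin protein and is a known ATF4 target, and it was the one gene of the 10 that was lower. It stood at 94.7, 98.4 and 82.2 FPKM untreated and 48.9, 63.2 and 52.9 FPKM treated. The groups did not overlap, with means of 91.8 ± 8.50 and 55.0 ± 7.39 FPKM (SD, n = 3), a ratio of 0.600 and a log2 fold change of -0.74 ± 0.11. Untreated Nupr1 stood beside Atf4 and Cebpb as one of the 3 most abundant mRNAs of the set, with overlapping ranges, whereas after cyclophosphamide it was the seventh. In untreated cells the order of levels ran Atf4, Nupr1, Cebpb, Atf5, Cebpa, Ddit3, Cebpg, Trib3, Atf3 and Cebpd, and the neighbours Atf4 and Nupr1, Nupr1 and Cebpb, Ddit3 and Cebpg, and Atf3 and Cebpd overlapped. In treated cells it ran Atf4, Trib3, Atf5, Cebpb, Ddit3, Cebpa, Nupr1, Atf3, Cebpg and Cebpd, and the ranges of Atf5 and Cebpb and of Cebpb and Ddit3 overlapped.

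The genes whose 6-library pattern came closest were ranked by the root mean square difference of log2 levels, each gene centred on its untreated mean. For Trib3 they were Slc7a11, the cystine transporter subunit, at 0.15, and Gdf15, a secreted stress cytokine, at 0.48. Mean Slc7a11 was 1.23 FPKM untreated and 50.8 FPKM treated, and its log2 fold change was 5.25 ± 0.10. The third, Cox6a2, rested on 2 untreated and 177 treated reads. For Atf4 they were Osgin1 (0.03), Ccdc117 (0.06) and Pi4k2a (0.06), for Cebpa Slc35e4 (0.03), Ppard (0.04) and Rnf169 (0.04), and for Nupr1 Ift88 (0.04), Adcy9 (0.06) and Mthfd1l (0.06). Such likeness describes these libraries and says nothing of shared control.

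The lists that follow were written with earlier results of these data known, so their counts are a description. Over all genes tested, 33.3% rose and 35.9% fell. Of 18 measured amino acid supply genes known as ATF4 or CHOP targets, 17 rose and 0 fell, with a median log2 fold change of 0.85. The largest rises were in Slc7a11 (5.25 ± 0.10), Slc3a2 (2.91 ± 0.08), its partner heavy chain, and the transporters Slc6a9 (2.77 ± 0.09) and Slc1a4 (2.76 ± 0.06). Pycr1, a proline synthesis enzyme, did not pass the threshold (0.09 ± 0.18, limma adjusted p = 0.67). Of 13 tRNA synthetase and tRNA export genes 12 rose and 0 fell (median 0.79), led by Eprs (1.29 ± 0.05), Sars (1.07 ± 0.07), Xpot (1.03 ± 0.06) and Gars (0.95 ± 0.07), while Lars (0.10 ± 0.12, adjusted p = 0.48) did not pass. Of 17 measured stress effectors 16 rose, led by Gdf15 (4.70 ± 0.10), Vegfa (3.72 ± 0.06), Chac1 (3.33 ± 0.07), a glutathione-degrading enzyme, and Ddit4 (3.25 ± 0.09), an mTORC1 inhibitor, and the autophagy gene Map1lc3b fell (-0.43 ± 0.09, adjusted p = 0.0031).

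Upstream of ATF4, 9 of 16 genes of the eIF2 pathway rose, 3 fell and the median was 0.45. The eIF2 phosphatase subunit Ppp1r15a (GADD34), itself a known target of the pathway, rose by 2.73 ± 0.09, Impact, an inhibitor of the kinase GCN2, by 1.48 ± 0.09, Ppp1r15b by 1.35 ± 0.08 and Eif2b3 by 0.81 ± 0.10. The 4 eIF2 kinases were split, with Eif2ak1 (HRI; 0.76 ± 0.06) and Eif2ak4 (GCN2; 0.43 ± 0.10) higher and Eif2ak2 (PKR; -0.51 ± 0.11) and Eif2ak3 (PERK; -0.39 ± 0.11) lower. Oma1, the mitochondrial protease that relays stress to HRI, fell (-0.46 ± 0.10).

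Other genes of the same protein families went in both directions. Of 17 other measured ATF, CREB and XBP1 genes 8 rose, 6 fell and the median was -0.04. Jdp2 is counted both here and among the stress effectors. Ppp1r15a is counted both among the stress effectors and in the eIF2 pathway. Atf1 (1.31 ± 0.09) and Creb3l4 (1.09 ± 0.29) rose, and Creb3l2 (-2.18 ± 0.08) and Creb3l3 (-1.75 ± 0.20), membrane-bound factors of the secretory pathway, fell. Creb3l4 rested on 35 untreated and 90 treated reads, and Creb3l3 on 131 untreated and 29 treated reads. Creb3 (-1.05 ± 0.09), Creb5 (-0.71 ± 0.17), Atf6b (-0.32 ± 0.10) and Xbp1 (-0.27 ± 0.06) fell as well. Of the other genes listed as CCAAT or PAR bZIP factors 3 of 4 rose, Nfil3 by 1.91 ± 0.10, Cebpz by 0.93 ± 0.08 and Tef by 0.66 ± 0.11. The deposited annotation does not class Cebpz as a bZIP gene. Of the Jun partners, Jun (1.35 ± 0.16) and Junb (0.96 ± 0.10) rose and Jund fell (-0.54 ± 0.15). Trib2, the Tribbles relative of Trib3, went the other way, from 26.0 to 4.14 FPKM (log2 fold change -2.63 ± 0.12, adjusted p = 1.5e-06), while Trib1 did not pass the threshold (0.19 ± 0.12, adjusted p = 0.17). Akt1 (-1.12 ± 0.07) and Akt2 (-0.24 ± 0.07), which encode kinases that TRIB3 binds, fell. Cop1, the Tribbles-associated ubiquitin ligase, rose (0.35 ± 0.09). Among NUPR1 relatives and partners, Relb (1.16 ± 0.10) and Msl1 (0.76 ± 0.06) rose and Aurka (-1.31 ± 0.10) fell. Of 17 measured genes of ovulation and luteinization, the process for which C/EBPα and C/EBPβ are known in these cells, 8 rose, 7 fell and the median was 0.27. Star, the cholesterol transporter of steroid synthesis, rose by 4.19 ± 0.16, Ptgs2 by 3.03 ± 0.09 and Tnfaip6 by 2.64 ± 0.10, and Has2, a hyaluronan synthase of cumulus expansion, had 155 reads in all untreated and 2 in all treated libraries. Also lower were the prolactin receptor Prlr (-2.34 ± 0.13), the steroid enzymes Hsd3b1 (-1.95 ± 0.10) and Cyp11a1 (-1.90 ± 0.29), Sfrp4 (-1.71 ± 0.11), Adamts1 (-0.34 ± 0.10) and Ptgfr, with 196 untreated and 7 treated reads.

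**Figure D4:**
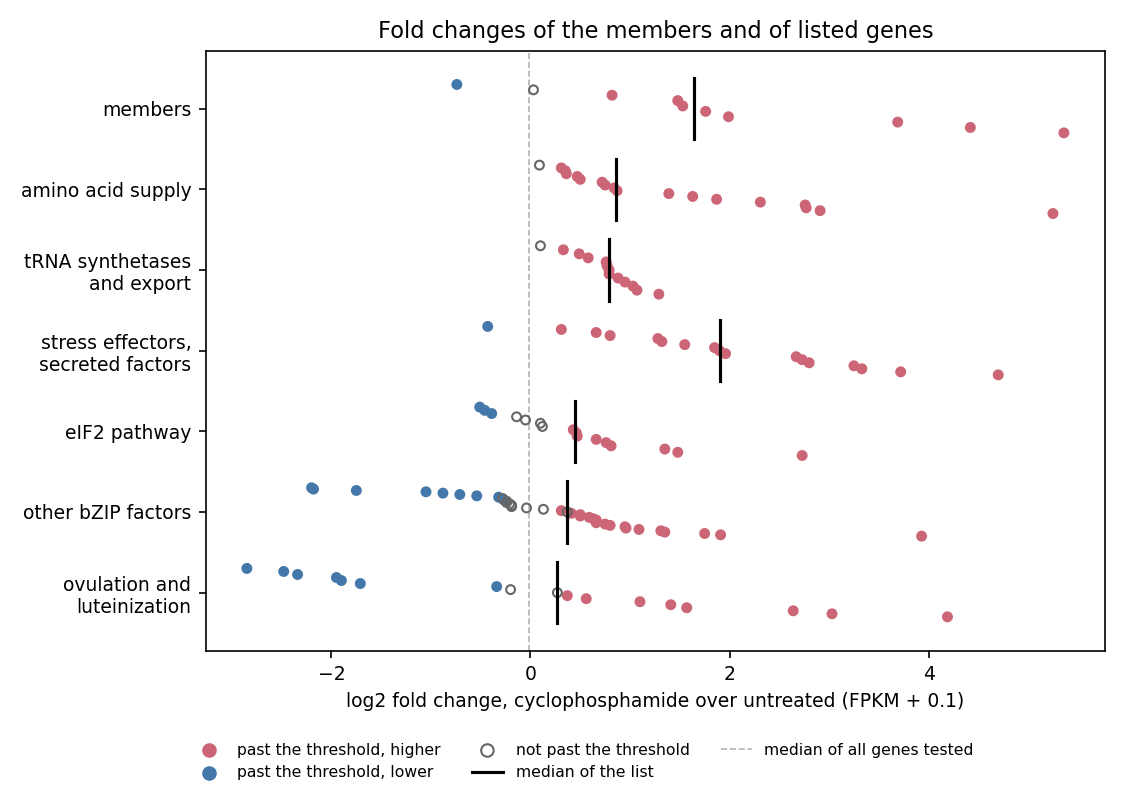
Log2 fold change, cyclophosphamide over untreated, of each gene in the set of 10 (members) and in the lists of other genes, filled where the gene passed the threshold and open where it did not, with a bar at the list median and a dashed line at the median of all genes tested. The set's median is 1.64 and that of the eIF2 pathway 0.45; the row of other bZIP factors holds the 37 measured genes of this kind in the deposited annotation, a list added after the values were seen.

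The median span of the 10 genes on the genome is 4959 bases, with Atf3 the longest at 47744, against 24909 for 12707 tested protein-coding genes. In 4 of them (Atf4, Cebpa, Cebpb and Cebpd) the annotated exons cover the whole span, as in 2.72% of those coding genes. The shortest of 4 equal classes of coding genes by span had a median log2 fold change of -0.04. Cebpa (chr7:35119293-35121928) and Cebpg (chr7:35046422-35056573) lie 62719 bases apart on GRCm38, and the 4 genes between them, none of them coding, had 1 read in all. Trib3 lies at chr2:152337422-152344032, Ddit3 at chr10:127290774-127296288 and Nupr1 at chr7:126623249-126630861.

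Some exons overlap genes on the other strand, and no source used here says whether counting used strand, so reads from such pairs cannot be told apart. Cebpb shares 312 exonic bases (20.7%) with Tmem189, which fell (-0.29 ± 0.07), and Cebpd shares 562 with Spidr, which fell (-0.70 ± 0.14). Atf5 shares 82 bases (4.11%) with Nup62 (0.75 ± 0.10) and Ddit3 68 (3.97%) with Mars (0.33 ± 0.07). The second Ddit3 identifier is a 105-base model whose bases all lie within exons of the main gene, and it had 0 reads in every library.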

How the data were processed

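The authors deposited a table of FPKM values per gene and library, with gene names, coordinates, exonic lengths and transcription factor families. Per the submitters' processing notes it was made with CASAVA, HISAT2 2.0.5 and GRCm39; no source used here names the read counter. The file's name calls the values counts, but FPKM multiplied by the listed length gave whole reads (tolerance 0.01) for 100% of values. The table's gene coordinates equal those of the GRCm38 annotation GENCODE M21 for 98.3% of 54495 shared identifiers, so coordinates are given on GRCm38.

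A gene was kept if it reached 10 reads, scaled to the median depth, in 3 or more libraries and its total was at least 15 reads (14751, holding 99.9% of reads). log2(FPKM + 0.1) was fitted with limma 3.58.1 in R 4.3.3 with a mean-variance trend, two-sided, and p-values were adjusted by Benjamini-Hochberg over all genes tested (threshold 0.05). The fit was tested on simulated data in which few genes changed, so that test does not cover data where most genes pass the threshold. The 10 genes and all lists were chosen with earlier results of these data known. Named beside them are, for each list, up to 4 changed genes with the largest absolute log2 fold change and changed genes that moved against the list's majority, genes overlapping one of the 10, and the 3 named coding genes with a mean of at least 1 FPKM nearest in pattern to Trib3, Atf4, Nupr1 and Cebpa; Pycr1, Lars, Trib1 and the kinases Eif2ak1 and Eif2ak4 were named after their values were seen. Of the list of TRIB3 relatives and partners, 1 gene is not reported here. Alternatives were the replicate block, other pseudocounts, scalings and filters, voom on the recovered reads, no trend, and leaving out each library.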

Additional observations from a re-analysis of the deposited data

How the results depend on the processing

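The counts for the 10 genes, 8 higher and 1 lower, were the same under all 16 alternatives. Over the whole table, 4444 to 5287 genes were higher and 4160 to 5311 lower across them, and 4450 to 4858 higher and 4798 to 5239 lower when 1 library was left out. The log2 fold change of Trib3 ranged from 5.11 to 5.43, of Ddit3 from 4.26 to 4.49, of Atf4 from 1.89 to 2.05, of Nupr1 from -0.85 to -0.66 and of Cebpd from -0.11 to 0.13. Same-numbered libraries did not deviate together (correlations -0.079, 0.009 and -0.029), and no library correlated best with the one of its own number. Such correlations cannot show whether same-numbered libraries were prepared together, and no label says so. A fit with the replicate number as a block gave 4767 genes higher and 5143 lower. A limma-voom fit on the recovered reads gave 5287 higher and 5081 lower. For Cebpd, with 148 to 217 reads a library, the libraries of a group varied by 17.3% (untreated) and 15.7% (treated), where read counting alone gives 7.4% and 7.3%. The marker counts that changed with a setting are given beside them. With no filter on low reads, the fall of Lyz2 did not pass the threshold, 1 oocyte marker rose and 4 surface epithelium markers fell.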

Other observations

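Among other bZIP genes, named after their values were seen, the AP-1 subunit gene Fosl1 stood at 4.63 ± 0.584 FPKM untreated and 71.9 ± 3.37 FPKM treated (SD, n = 3), and its log2 fold change was 3.93 ± 0.09. Of genes with untreated reads, the nearest in pattern to Ddit3 were Hmox1, the haem oxygenase gene (65.4 and 1367 FPKM), and Srxn1, the sulfiredoxin gene (39.7 and 711.4 FPKM). Near Cebpg in pattern was Fth1, the ferritin heavy chain gene, at 1065 and 3128 FPKM. Likeness over 6 libraries in 2 groups is a description.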
